A study of Mus musculus with 8 samples.

Results

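The T-box genes Tbx2, Tbx3, Tbx4, Tbx5, Tbx15 and Tbx18 were followed through 4 lists of H3K36me3 peaks from mouse embryonic fibroblasts (MEFs). They are 6 of the 17 T-box genes of the mouse, and 6 of the 16332 protein-coding genes with at least 4 exons on which the mark was measured. The members were chosen by name and by values of these data: Tbx2 and Tbx4 were selected on a larger amount of the mark in OSKM B12 than in MEF, so that contrast is given here as a description and supports nothing. A peak base was found in 10788 of the 16332 genes, and all 6 members were among these.

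The cells were i4F MEFs from E13.5 mouse embryos, a strain on a C57/BL6J background with a transgene cassette of OCT4, SOX2, KLF4 and MYC (OSKM) that doxycycline switches on, and every condition carried that cassette. All cells came from 1 embryo, labelled Clone 1, that the study followed because it reprogrammed more efficiently than the others, and all were grown in iPSC media for 72 h. MEF received neither agent, MEF B12 received 2 µM vitamin B12, OSKM received 1 µg/ml doxycycline by the labels, and OSKM B12 received both. The 8 libraries, 1 of H3K36me3 and 1 of input per condition, hold no replicates, so there is no SD and no p-value for any difference below.

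T-box factors bind DNA through a shared domain, the T-box, and act as repressors or activators in the limb, heart, lung, skin and skeleton of the embryo. TBX2 and TBX3 act mainly as repressors, TBX4 and TBX5 as activators that start limb and lung or heart growth, and TBX15 and TBX18 belong to another branch of the family that works in mesenchyme. H3K36me3, trimethylation of lysine 36 of histone H3, is written by SETD2, an enzyme that travels with elongating RNA polymerase II, and it therefore builds up along the bodies of transcribed genes towards their 3′ ends. It is known as a mark of past transcription through a gene, not of promoters.

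Positions are those of mm10 and the longest protein-coding transcript of each gene in GENCODE M21. Tbx2 (chr11:85832551-85841948, plus strand, 7 exons, 9.40 kb) and Tbx4 (chr11:85886422-85916095, plus strand, 9 exons, 29.7 kb) lie close to each other on chromosome 11. Tbx3 (chr5:119670669-119684561, plus strand, 7 exons, 13.9 kb) and Tbx5 (chr5:119834663-119885219, plus strand, 9 exons, 50.6 kb) are neighbours on chromosome 5. Tbx15 (chr3:99253760-99354259, plus strand, 8 exons, 100.5 kb) and Tbx18 (chr9:87702800-87731260, minus strand, 8 exons, 28.5 kb) stand alone.

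Stretches called in some conditions and not in others are shown first, since the members with little mark differed in where it was called. Coding bases are in capitals, all other bases are in lower case, and each stretch is written 5′ to 3′ on the strand of its gene. In Tbx4, a pair of stretches was called in OSKM and OSKM B12 and in neither uninduced library, 320 bases that begin in the last 40 bases of exon 5 and run on into intron 5 (the first 300 shown, chr11:85899858-85900157, plus strand) and 334 bases within intron 5 (300 shown, chr11:85910555-85910854, plus strand).
Tbx4 exon 5 and intron 5: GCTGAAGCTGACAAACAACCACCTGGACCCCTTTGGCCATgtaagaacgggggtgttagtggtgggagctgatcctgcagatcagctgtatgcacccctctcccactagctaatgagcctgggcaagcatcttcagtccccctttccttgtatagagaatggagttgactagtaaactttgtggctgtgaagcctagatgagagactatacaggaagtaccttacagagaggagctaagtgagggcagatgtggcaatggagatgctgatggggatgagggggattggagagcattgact
Tbx4 intron 5: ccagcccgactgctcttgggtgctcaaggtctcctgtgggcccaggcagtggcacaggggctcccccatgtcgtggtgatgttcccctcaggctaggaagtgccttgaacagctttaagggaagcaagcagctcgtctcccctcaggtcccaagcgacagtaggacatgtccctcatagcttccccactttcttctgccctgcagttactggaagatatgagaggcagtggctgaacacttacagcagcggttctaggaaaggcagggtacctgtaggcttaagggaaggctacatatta
These stretches held 51.0% and 56.0% G and C, against 50.7% over the whole gene body.

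For Tbx5, Tbx3, Tbx15 and Tbx18, a stretch of the last exons or the first covered exon is shown. In Tbx5 no base was called in all 4 libraries, and the stretch below (chr5:119883086-119883385, plus strand) comes from 526 bases of the last exon that were called in MEF, MEF B12 and OSKM B12 and not in OSKM. The stretches of Tbx3 (chr5:119680630-119680929, plus strand), Tbx15 (chr3:99308786-99309085, plus strand) and Tbx18 (chr9:87727264-87727563, minus strand) were called in all 4 libraries.
Tbx5 exon 9: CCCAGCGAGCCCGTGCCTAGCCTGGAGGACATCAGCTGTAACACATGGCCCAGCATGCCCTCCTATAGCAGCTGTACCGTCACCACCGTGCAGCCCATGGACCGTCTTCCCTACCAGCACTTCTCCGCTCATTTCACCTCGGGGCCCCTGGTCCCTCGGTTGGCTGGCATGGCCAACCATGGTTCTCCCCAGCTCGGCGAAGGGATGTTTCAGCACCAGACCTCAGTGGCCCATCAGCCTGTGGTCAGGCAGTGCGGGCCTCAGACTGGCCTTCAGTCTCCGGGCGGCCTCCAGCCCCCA
Tbx3 exon 6: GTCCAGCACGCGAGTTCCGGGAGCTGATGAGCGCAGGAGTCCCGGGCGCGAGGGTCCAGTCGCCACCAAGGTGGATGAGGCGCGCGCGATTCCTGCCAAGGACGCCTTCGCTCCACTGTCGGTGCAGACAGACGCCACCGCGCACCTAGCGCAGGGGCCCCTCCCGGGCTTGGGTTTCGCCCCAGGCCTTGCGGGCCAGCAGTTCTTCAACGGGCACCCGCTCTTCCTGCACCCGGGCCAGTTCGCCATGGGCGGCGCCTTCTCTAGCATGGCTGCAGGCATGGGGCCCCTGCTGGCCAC
Tbx15 exon 2 and its borders: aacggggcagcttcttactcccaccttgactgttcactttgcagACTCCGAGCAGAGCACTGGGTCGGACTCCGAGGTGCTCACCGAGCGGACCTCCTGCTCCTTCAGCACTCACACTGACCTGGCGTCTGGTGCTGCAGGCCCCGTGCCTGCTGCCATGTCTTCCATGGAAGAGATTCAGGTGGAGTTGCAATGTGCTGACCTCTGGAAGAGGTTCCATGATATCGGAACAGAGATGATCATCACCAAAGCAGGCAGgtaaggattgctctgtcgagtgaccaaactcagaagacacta
Tbx18 exon 3 and its borders: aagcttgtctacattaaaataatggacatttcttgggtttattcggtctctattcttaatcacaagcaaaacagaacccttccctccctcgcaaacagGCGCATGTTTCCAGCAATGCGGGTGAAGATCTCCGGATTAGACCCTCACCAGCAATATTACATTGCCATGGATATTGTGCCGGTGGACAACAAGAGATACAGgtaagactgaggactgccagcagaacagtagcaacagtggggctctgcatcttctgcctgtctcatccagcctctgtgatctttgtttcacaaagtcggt
These hold 64.3% G and C in Tbx5, 70.0% in Tbx3, 55.3% in Tbx15 and 46.3% in Tbx18. Each value is above that of its own gene body, which was 47.7%, 48.9%, 41.8% and 40.7% in the same order. The stretches were picked by where peaks overlapped, so this is a description of those printed.

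Depth was alike in the 4 libraries, with 29046913 to 33399267 H3K36me3 tags and 34524486 to 36150875 input tags, and between 65473 and 69420 peaks were called per library. OSKM had the most tags and the least covered sequence, 92.8 Mb against 154 to 166 Mb in the others. The mark was found over 9 of the 10 fibroblast marker genes in MEF, among them Fn1, Pdgfra, Col1a1 and Col1a2 (84.8 to 97.7% of the body covered in MEF), and S100a4 was listed at 0 there. Of 21 markers of epithelial, endothelial, blood, muscle, neural and pluripotent cells, 14 had no peak in any library, but Cd68 was covered over 76.0 to 100% of its body and Tubb3 over 25.1% in MEF, and Tek went from 2.84% in MEF to 26.6% in OSKM B12. The coding gene Gm20388 overlaps Tubb3. Whether cells of another type take part in the members' values was not tested. In bulk chromatin, more cells with the mark and more of the mark per cell cannot be told apart, and reads carry no strand, so the mark of overlapping genes cannot be separated.

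A pair of measures was used for each gene. The covered share is the percentage of the gene body inside a peak, and the density is the sum over those bases of pileup (the mean number of sequenced fragments over a base) per 1000000 tags, divided by the length of the whole body. Bases outside peaks count as 0. Errors are 95% intervals from the estimated number of fragments in peaks, and they cover counting error only, not the variation between cultures or immunoprecipitations. A gene is called marked where at least 10% of its body was covered in at least 1 library, which held for 8766 genes and all 6 members. Tbx2 and Tbx4 reached that limit through OSKM B12 alone.

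The mark was broad over Tbx15, Tbx18 and Tbx3, thin over Tbx5 and near the limit of detection over Tbx4 and Tbx2. In MEF the covered share ran in the order Tbx15, Tbx18, Tbx3, Tbx5, Tbx4 and Tbx2, from 57.5% to 0%. OSKM had the lowest covered share of the 4 libraries in 5 of the 6 genes, and OSKM B12 had the highest in all 6. Tbx2 was the exception, with no peak in either uninduced library.

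**Figure D1:**
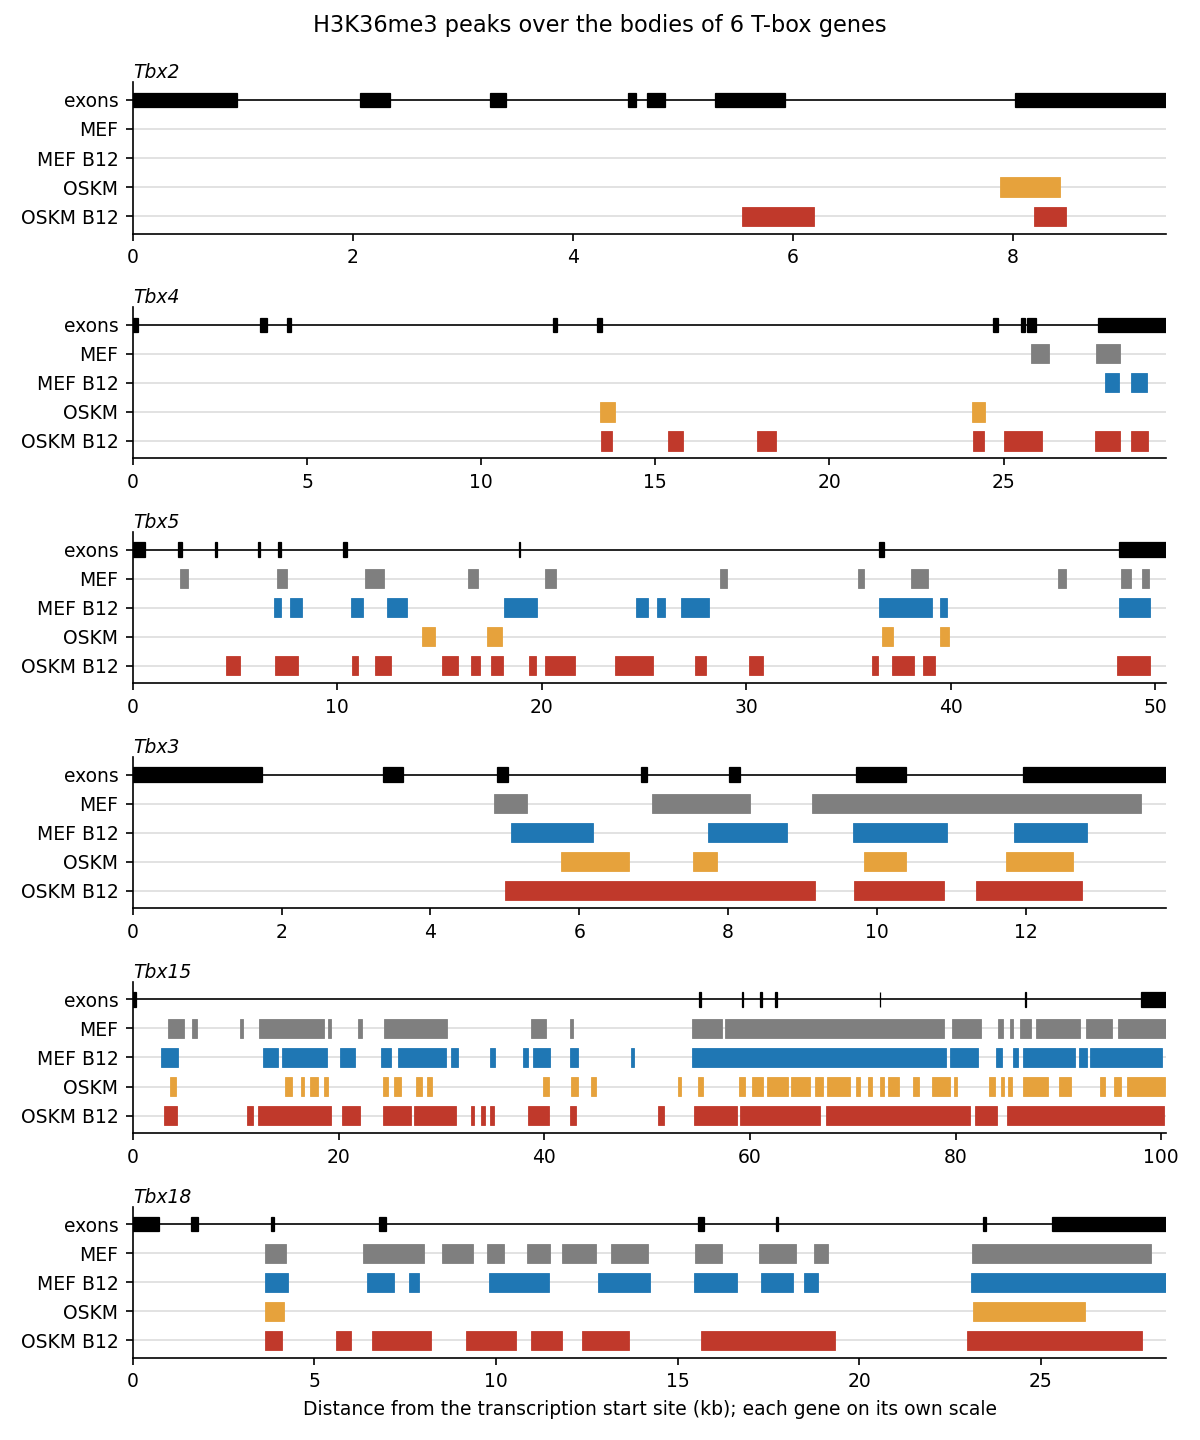
Peaks over the 6 gene bodies, drawn by distance from the transcription start site in kb, with exons in black above 1 row for each library and each gene on its own scale. Tbx2 has peaks in OSKM and OSKM B12 alone, the peaks of Tbx4 number 7 in OSKM B12 against 2 in each other library, and the long blocks of Tbx15 in MEF are cut into 35 shorter peaks in OSKM.

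**Figure D2:**
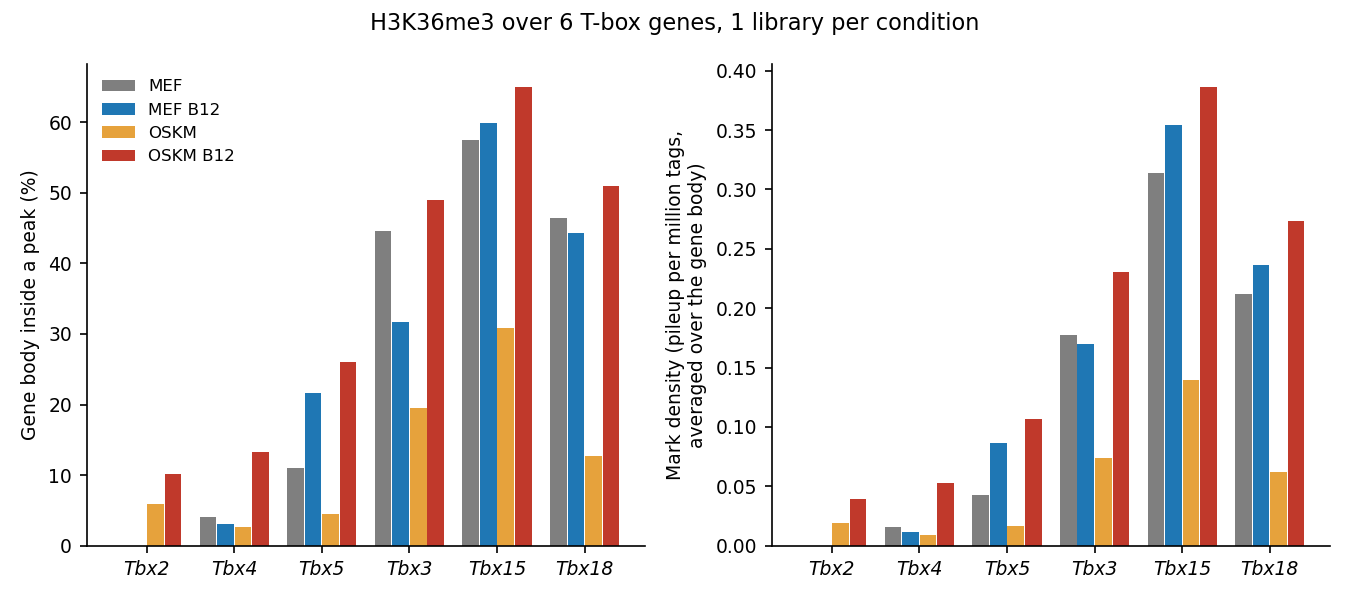
Covered share of the gene body in % (left) and mark density in pileup per 1000000 tags averaged over the body (right), with 1 bar per library and no error bar since each condition had 1 library. OSKM is the lowest bar for Tbx3, Tbx4 (not relative to the median marked gene), Tbx5, Tbx15 and Tbx18, and OSKM B12 is the highest for all 6 genes.

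Tbx2 encodes a repressor that keeps heart tissue from forming chamber muscle and that restrains genes of cell-cycle arrest. MEF and MEF B12 had 0 peaks, OSKM had 1 and OSKM B12 had 2. The covered share of OSKM was 5.87% with a density of 0.0190, and that of OSKM B12 was 10.1% with a density of 0.0391, beside 0 in the other libraries. Both induced libraries were thus above both uninduced ones. The OSKM peak was 552 bases long, from intron 6 into exon 7, 7.88 kb from the start site, with a fold enrichment over input of 2.39 and a −log10 q of 1.39. In OSKM B12 one peak lay at 5.54 kb, from exon 6 into intron 6 (657 bases, fold enrichment 2.78, −log10 q 2.50), and the other at 8.19 kb in exon 7 (292 bases, fold enrichment 2.11, −log10 q 1.20). The peak of OSKM held an estimated 21 fragments (13 to 32.1) and the peaks of OSKM B12 held 37 (26.1 to 51.0), a density ratio of 2.06 (1.13 to 3.57). Against MEF and MEF B12 no ratio can be given, because the gene is listed at 0 in both.

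Tbx4 encodes an activator of hindlimb and lung mesenchyme. MEF had a covered share of 4.01%, MEF B12 3.02%, OSKM 2.70% and OSKM B12 13.3%, and the densities were 0.0156, 0.0112, 0.00878 and 0.0524. OSKM B12 stood above the other 3 libraries, which lay close together. The 2 peaks of MEF lay towards the 3′ end of the gene, over exon 8 and exon 9 at 25.8 and 27.7 kb, and those of MEF B12 lay in exon 9 at 27.9 and 28.7 kb. Neither uninduced library had a peak before 25.8 kb. OSKM had its 2 peaks elsewhere, at 13.4 kb on the border of exon 5 and at 24.1 kb in intron 5, and shared no base with MEF. OSKM B12 held peaks at both sets of places: it contained 84.7% of the bases called in MEF, 100% of those of MEF B12 and 81.5% of those of OSKM, and 1810 bases called in no other library. The density of OSKM B12 was 5.97 times that of OSKM (4.00 to 9.09) and 4.66 times that of MEF B12 (3.21 to 7.05).

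The peaks of Tbx2 and Tbx4 were small and weak. The 16 peaks over both genes in the 4 libraries were 292 to 1093 bases long, with a fold enrichment of 2.11 to 2.99 and a −log10 q of 1.20 to 3.04, beside a lowest −log10 q of 1.00 to 1.01 in the whole lists. None reached a −log10 q of 5. By density, 1.94% of the marked genes were below Tbx2 in OSKM B12 and 3.97% were below Tbx4.

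Tbx5, an activator that starts the forelimb and shapes the heart, was covered over 11.0% (MEF), 21.7% (MEF B12), 4.43% (OSKM) and 26.1% (OSKM B12) of its body, with densities of 0.0424, 0.0867, 0.0164 and 0.107. Both libraries with vitamin B12 were above both without it. Its 11, 11, 4 and 16 peaks were scattered, mostly over introns and the last exon. They were also weak, at most 2559 bases long with a −log10 q of at most 3.52. Their places changed between libraries: MEF B12 contained 34.2% of the bases called in MEF, OSKM shared none with MEF, and 5330 bases were called in OSKM B12 alone.

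Tbx3, a repressor of limb and mammary gland development that is also active in pluripotent cells, was covered over 44.6% (MEF), 31.7% (MEF B12), 19.5% (OSKM) and 48.9% (OSKM B12) of its body, with densities of 0.177, 0.170, 0.0742 and 0.231. OSKM lay below the other 3 on both measures. No library had a peak before 4.855 kb from the start site. From there on, MEF had 3 peaks of which the longest covered 4415 bases to near the 3′ end, while OSKM had 4 of at most 918 bases. The bases called in all 4 libraries numbered 1479. Within peaks, the pileup per 1000000 tags was 0.398 in MEF and 0.380 in OSKM, a mean over the bases called in each library, which are not the same bases.

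Tbx15, which acts in the skeleton, skin and fat, had the most mark. It was covered over 57.5% (MEF), 59.9% (MEF B12), 30.8% (OSKM) and 64.9% (OSKM B12) of its body, with densities of 0.314, 0.354, 0.140 and 0.386. The longest peak spanned 21249 bases in MEF, 24742 in MEF B12 and 15206 in OSKM B12, against 3690 in OSKM, where the gene held 35 peaks instead of 17 to 19. By density it stood near the middle of the marked genes, with 54.4% of them lower in MEF and 49.6% in OSKM. The antisense gene Gm43120 overlaps the start of Tbx15 over 6588 bases and was covered over 32.6%, 25.4%, 9.71% and 19.2% of its own length. Its part in the mark there cannot be told apart from that of Tbx15.

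Tbx18, which acts in the epicardium, the sinus node and the somites, was covered over 46.4% (MEF), 44.3% (MEF B12), 12.7% (OSKM) and 51.0% (OSKM B12) of its body, with densities of 0.212, 0.236, 0.0618 and 0.273. OSKM had 2 peaks against 11 in MEF. They lay at the first covered exon and over the 3′ end, and all of their bases were also called in MEF. Between them, parts 3 to 8 of the 10 equal parts of the gene body held no peak base in OSKM, where MEF had up to 72.8% of a part covered. Part 8 held none in any library. The pileup per 1000000 tags of the peak at the first covered exon was 0.529 in MEF and 0.391 in OSKM, and that of the peak over the 3′ end was 0.538 and 0.503. OSKM thus had fewer covered bases, and by scaled pileup both of its peaks were lower than those of MEF at the same place. By fold enrichment over input, the peak at the first covered exon was at 2.44 in both libraries, and that over the 3′ end at 2.91 and 2.45. The peaks over the 3′ end were 4934 bases long in MEF and 3102 in OSKM, so their means are not over the same bases.

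**Figure D3:**
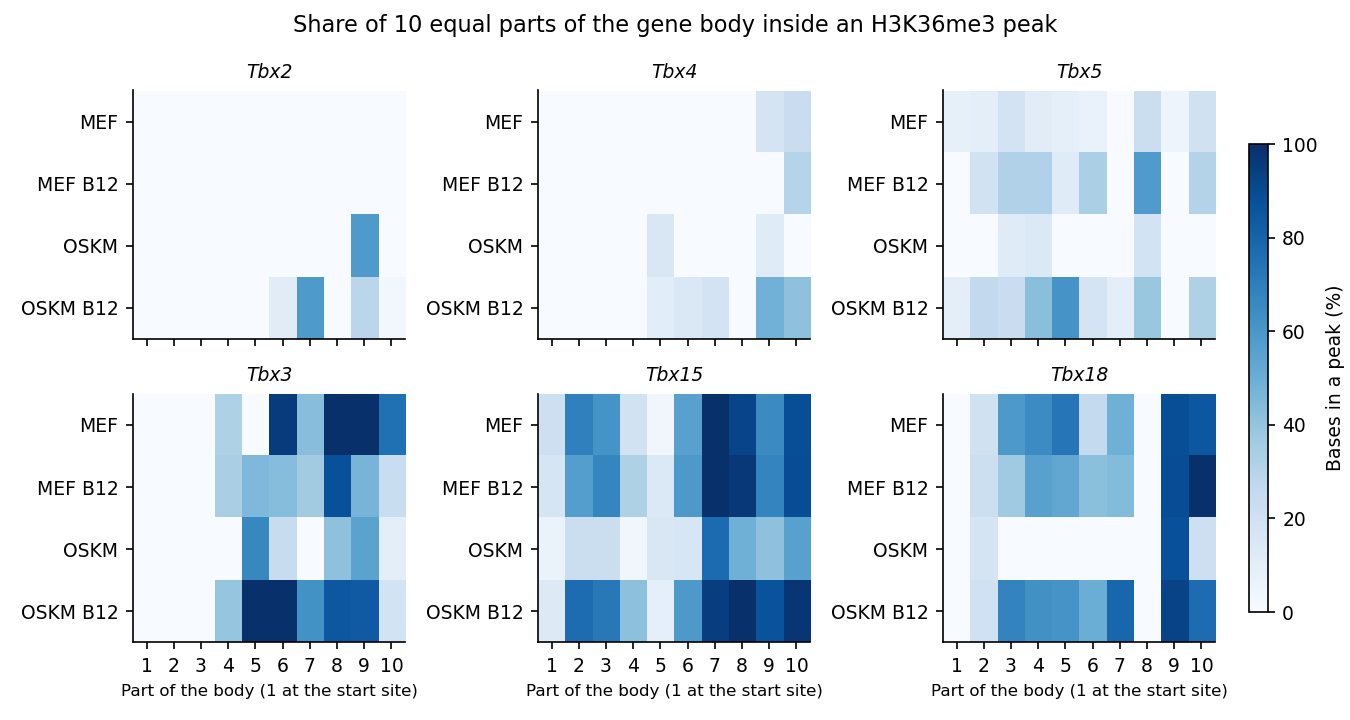
Share in % of each of 10 equal parts of the gene body inside a peak, from 0 (white) to 100 (dark blue), with part 1 at the transcription start site and 1 row per library. Tbx15 and Tbx18 are darkest towards the 3′ end, the middle of Tbx18 is empty in OSKM, Tbx3 has no covered part among the first 3, and Tbx2 and Tbx4 have no covered part among the first 4.

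The mark leaned to the 3′ side of most members. Each body was split at its midpoint. In MEF the side of the 3′ end was covered over 82.7% in Tbx3, 80.2% in Tbx15 and 8.03% in Tbx4, and the side of the start site over 6.45%, 34.9% and 0%. Tbx18 was more even, with 49.6% against 43.3%. Tbx5 leaned to neither side in MEF, 10.7% against 11.4%, and to the start site in OSKM B12, 19.7% against 32.4%. A RefSeq promoter window around a start site was at hand for Tbx4 and Tbx18, and neither window held a peak base in any library. The window of Tbx4 (chr11:85896515-85896814) lies inside the gene body used here, which starts at 85886422, so it does not cover the start of that transcript.

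From MEF to OSKM, density was lower in 5 of the 6 genes (4 relative to the median marked gene of each library), where 91.8% of the 10788 genes with a peak were lower. Tbx2 was the member that was higher, and it was listed at 0 in MEF. Tbx2 and Tbx4 were selected on a contrast with this MEF library. Their values here, and the counts and median that hold them, are thus not independent of that choice. The ratio of OSKM to MEF was 0.418 for Tbx3 (0.341 to 0.529), 0.563 for Tbx4 (0.347 to 0.899), 0.387 for Tbx5 (0.306 to 0.499), 0.445 for Tbx15 (0.425 to 0.479) and 0.292 for Tbx18 (0.252 to 0.347). Bases outside peaks count as 0 in these ratios. Over the bases in a peak in all 4 libraries, the log2 change was 0.025 in Tbx3, −0.26 in Tbx15 and −0.09 in Tbx18. On the log2 scale with a pseudocount of 0.05, which shrinks the values of thinly marked genes, a 1.5-fold lower density was met by Tbx3, Tbx15 and Tbx18, 3 of 6, against 56.4% of all genes. The members' median log2 change was −0.67, beside −0.71 over marked genes. Tbx18 was at −1.23, and 7.63% of the marked genes were lower still. Relative to the median marked gene, Tbx4 turned from −0.16 to 0.05, and Tbx3, Tbx5, Tbx15 and Tbx18 kept a lower value (−0.57 to −0.13).

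With vitamin B12 in induced cells, OSKM B12 against OSKM, density was higher in 6 of 6 genes (5 relative to the median marked gene) where 94.5% of all genes were higher, and past 1.5-fold in 5 of 6 where 78.8% were. The ratio was 3.11 for Tbx3 (2.47 to 3.80), 6.52 for Tbx5 (5.17 to 8.08), 2.76 for Tbx15 (2.57 to 2.89) and 4.42 for Tbx18 (3.73 to 5.11), with those of Tbx2 and Tbx4 given above. Bases outside peaks count as 0 in these ratios. Over the bases in a peak in all 4 libraries, the log2 change was 0.20 in Tbx3, 0.38 in Tbx15 and 0.33 in Tbx18. On the log2 scale the members' median was 1.19, beside 0.98 over marked genes. OSKM B12 is the library on which Tbx2 and Tbx4 were selected and through which alone they counted as marked, so this median and the counts that hold them are not independent of that choice. Tbx18 was again at the edge, at 1.53 above 95.1% of the marked genes. Tbx2 ranked low, at 0.37 above 1.57% of them, but its plain ratio was 2.06. Its densities, 0.0190 and 0.0391, are below the pseudocount of 0.05, so that rank depends on the pseudocount. The value of Tbx4, 0.80 beside a plain ratio of 5.97, is shrunk in the same way. Relative to the median marked gene, Tbx2 turned to −0.12 and the other 5 stayed above 0 (0.11 to 0.68).

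Without doxycycline, the largest ratio of density with vitamin B12 was that of Tbx5. MEF B12 was above MEF in 3 of 6 genes, Tbx5, Tbx15 and Tbx18 (Tbx5 alone relative to the median marked gene), where 85.7% of all genes were higher, and in 0 of 6 past 1.5-fold on the log2 scale, where 3.13% were. The ratio was 2.04 for Tbx5 (1.75 to 2.41), 1.13 for Tbx15 (1.08 to 1.19), 1.12 for Tbx18 (1.00 to 1.25), 0.956 for Tbx3 (0.802 to 1.15) and 0.721 for Tbx4 (0.446 to 1.12). The intervals of Tbx3 and Tbx4 include 1, so a difference was not detectable at this depth. By covered share Tbx3 was lower in MEF B12, 31.7% against 44.6%, and so was Tbx18, 44.3% against 46.4%, while Tbx5 was higher, 21.7% against 11.0%. Tbx5 stood at 0.56 on the log2 scale, just short of 1.5-fold once the pseudocount is added, and above 96.2% of the marked genes, beside their median of 0.21. Relative to that median, Tbx15 and Tbx18 turned to −0.07 and −0.08 and Tbx5 remained at 0.39. MEF is a library on which Tbx2 and Tbx4 were selected, so their values in this comparison are not independent of that choice.

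With vitamin B12 in both states, OSKM B12 was above MEF B12 in 6 of 6 genes, where 59% of all genes were higher, and past 1.5-fold in 2 of 6, Tbx2 and Tbx4, where 2.02% were. The ratios of the other members were 1.36 for Tbx3 (1.14 to 1.61), 1.23 for Tbx5 (1.08 to 1.40), 1.09 for Tbx15 (1.04 to 1.14) and 1.16 for Tbx18 (1.04 to 1.28). All 6 stayed above 0 relative to the median marked gene. This comparison shares its OSKM B12 library with the one that chose Tbx2 and Tbx4, so their values in it are not independent of that choice.

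Against MEF, the contrast of the choice, OSKM B12 was higher in 6 of 6 genes, 5 relative to the median marked gene (85.5% of all genes) and past 1.5-fold in 3 of 6, Tbx2, Tbx4 and Tbx5 (5.99% of all genes). The density of OSKM B12 was 3.36 times that of MEF in Tbx4 (2.43 to 4.66), 2.52 times in Tbx5 (2.16 to 2.95), 1.30 times in Tbx3 (1.10 to 1.53), 1.23 times in Tbx15 (1.18 to 1.29) and 1.29 times in Tbx18 (1.16 to 1.43). Tbx15 turned to −0.018 relative to the median marked gene.

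**Figure D4:**
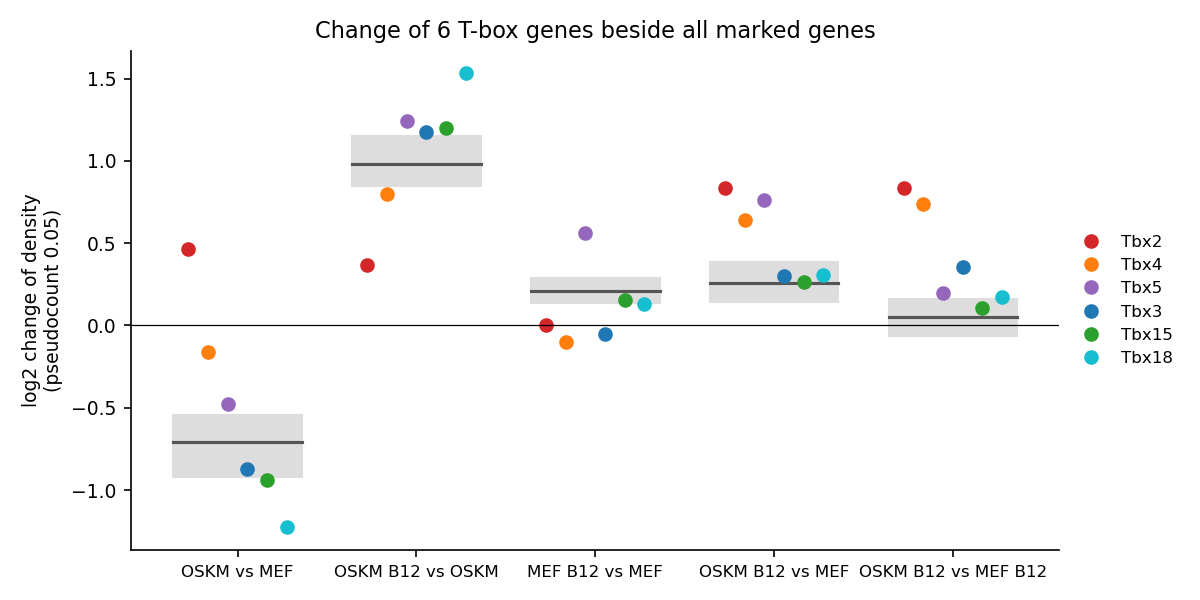
The log2 change of density (pseudocount 0.05) of each member, as coloured points, in the 5 comparisons, with the first-named library over the second. Grey boxes run from the lower to the upper quartile of the 8766 marked genes with their median as a line, and Tbx2 lies above the box in OSKM vs MEF (0.46, a gene listed at 0 in MEF) and below it in OSKM B12 vs OSKM (0.37), where it turns to −0.12 relative to the median marked gene. The densities of Tbx2 are below the pseudocount, which shrinks its values. Tbx2 and Tbx4 were selected on OSKM B12 against MEF, so their values in comparisons with either library are not independent of that choice.

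How far the places of the mark held in a gene depended on the libraries compared and on whose bases were counted. Of the bases called in OSKM, 100% in Tbx18, 86.1% in Tbx15, 66.2% in Tbx3, 0% in Tbx5, 0% in Tbx4 and 0% in Tbx2 were also called in MEF, against 93.4% over all marked genes. Between MEF B12 and MEF the share of the bases of MEF that were called again was 89.4% in Tbx15, 78.2% in Tbx18, 48.8% in Tbx3, 35.5% in Tbx4 and 34.2% in Tbx5, against 89.0% over all marked genes. Tbx2 had no peak in MEF, so its 0% was fixed. Of the bases of MEF, OSKM called 46.1% again in Tbx15, 29.0% in Tbx3 and 27.3% in Tbx18. It called 0% of them in Tbx4 and Tbx5, against 57.6% over all marked genes. OSKM B12 called 92.7% of the MEF bases of Tbx15, 84.7% in Tbx4, 80.6% in Tbx18, 69.4% in Tbx3 and 54.3% in Tbx5. Over all marked genes this share was 88.5%. Tbx4 and Tbx5 had short peaks with a −log10 q of at most 3.52. The peaks of Tbx15 in OSKM were also short, with a median of 593 bases, and those of Tbx18 there had a −log10 q of at most 2.18. In MEF, 4.01% of Tbx4 and 11.0% of Tbx5 were covered, against 44.6 to 57.5% of Tbx3, Tbx18 and Tbx15. A smaller covered share leaves less room for overlap, and the part of each trait was not tested.

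**Figure D5:**
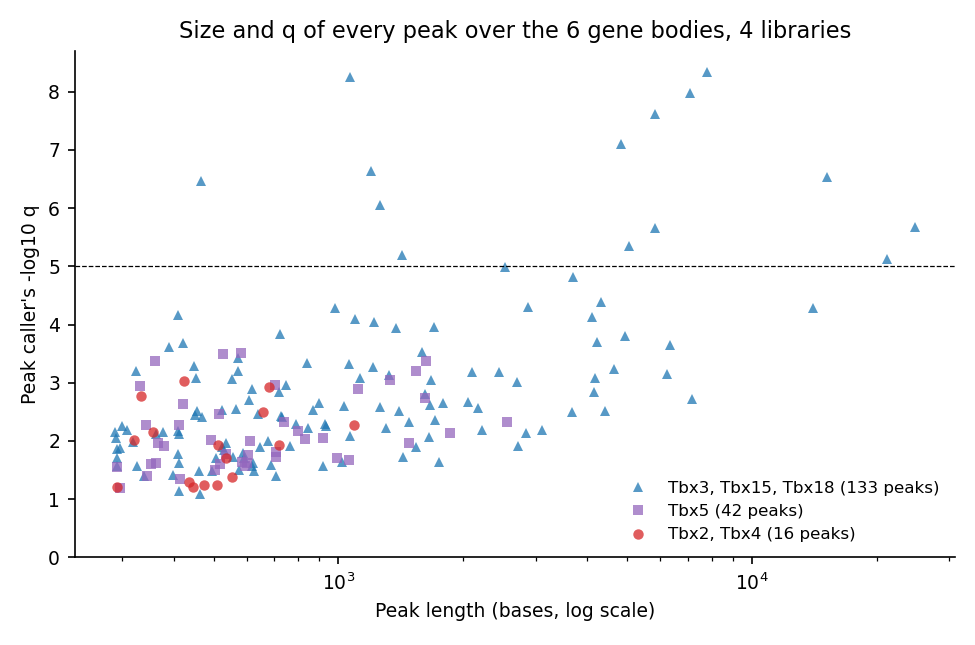
Length in bases (log axis) and −log10 q of each of the 191 peaks over the 6 gene bodies in the 4 libraries, with a dashed line at a −log10 q of 5. The 16 peaks of Tbx2 and Tbx4 and the 42 peaks of Tbx5 lie at or below 3.52, while those of Tbx3, Tbx15 and Tbx18 reach 8.34 and 24742 bases.

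The nearest coding genes were covered to differing extents, and Bcas3, Med13l and Rbm19 were, like 5 of the 6 members, lowest in OSKM and highest in OSKM B12. Bcas3, upstream of Tbx2, was covered over 2.65% (MEF), 2.31% (MEF B12), 0.627% (OSKM) and 2.73% (OSKM B12) of its body, and Gm11444, between Tbx2 and Tbx4, was listed at 0 in all 4. Brip1, beyond Tbx4, was covered over 1.12 to 2.37%. Each of these genes had under 3% of its body covered in all 4 libraries. On the other chromosomes Rbm19, beyond Tbx5, was covered over 53.5%, 57.1%, 33.5% and 63.0% in the same order of libraries, and Med13l, before Tbx3, over 25.1%, 28.4%, 20.2% and 29.1%. Cep162, beside Tbx18, was covered over 76.1%, 66.5%, 36.3% and 74.1%, and Nt5e, on its other side, over at most 0.989%. Wars2 and Spag17, on either side of Tbx15, were covered over 1.35 to 5.94% and were also lowest in OSKM. Tbx3os1, which runs antisense from the start of Tbx3, and D030062O11Rik, which overlaps the start of Tbx18, were listed at 0. Within 10 kb outside the members, 8 short peaks were called, of which a peak in OSKM B12 began 0.249 kb past the end of Tbx4.

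Among the other 11 T-box genes, 9 had no peak in any library. They include T, the founding member of the family and a regulator of mesoderm, and Eomes and Tbx21, known from endoderm and T cells. The exceptions were Mga, a repressor that pairs with MAX, covered over 58.7% (MEF), 66.1% (MEF B12), 37.2% (OSKM) and 61.1% (OSKM B12) of its body, and Tbx6, a regulator of somite formation, covered over 58.3%, 55.3%, 43.0% and 75.9%. No other coding gene overlaps either of them. Both were lowest in OSKM, as were 5 of the 6 members.

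Of 22 partners, regulators and targets of T-box factors, 11 had a peak in each uninduced library, 8 had one with doxycycline and 10 with both agents. Tle3 and Hdac1, which code for corepressors, Cdkn1a, a cell-cycle inhibitor that TBX2 and TBX3 repress, and Wnt5a, a limb signal, had the highest mean densities, and Cdkn1a was covered over 45.8%, 44.6%, 28.4% and 34.7%. The heart partners Gata4, Nkx2-5 and Hand2 and the target Cdkn2a had no peak, and Fgf10, the limb and lung target of TBX4 and TBX5, had a peak in MEF B12 alone, over 0.393% of its body. Of the 22, 12 had a peak in at least 1 library. From MEF to OSKM 11 of these 12 were lower, where 91.8% of all genes with a peak were, and from OSKM to OSKM B12 10 of the 12 were higher, where 94.5% were. Those shares are over genes with at least 4 exons, and some of the 12, such as Cdkn1a, have fewer.

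Of 25 transcription factors of limb and mesenchyme, 17, 18, 16 and 16 had a peak in MEF, MEF B12, OSKM and OSKM B12. Hic1, Osr2, Prrx1 and Runx1 had the highest mean densities, and Prrx1 was covered over 43.4%, 44.4%, 21.4% and 53.2%, with OSKM lowest. The median log2 change of those with a peak was −0.61 in OSKM vs MEF and 0.73 in OSKM B12 vs OSKM, beside −0.67 and 1.19 for the 6 T-box genes and −0.71 and 0.98 for all marked genes. In OSKM B12 vs MEF B12, of the 20 with a peak in at least 1 library, 9 were higher and 10 were lower, where 59% of all genes were higher. Past 1.5-fold, 3 were higher, where 2.02% of all genes were, and 3 were lower, a direction for which no share of all genes was counted. The shares of all genes are over those with at least 4 exons. Twist2 and Foxc1, among the higher, and Msx1, En1 and Snai2, the lower, have 1 to 3 exons and are outside that background.

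The marked genes whose 4 log2 densities, centred on their mean, lay nearest to those of Tbx4 by Euclidean distance over the 4 libraries were Fam20a (distance 0.06), Galnt18 (0.06) and 2900026A02Rik (0.07). Fam20a was covered over 7.93% (MEF), 6.44% (MEF B12), 6.33% (OSKM) and 17.5% (OSKM B12) of its body, and Galnt18 over 6.68%, 5.65%, 4.44% and 15.1%. These genes also had little mark and stood highest in OSKM B12. For Tbx2 the nearest were Arsa (0.12), Scd4 (0.19) and Pou6f1 (0.20). Arsa was covered over 13.3% (MEF), 8.42% (MEF B12), 24.3% (OSKM) and 24.2% (OSKM B12) of its body, with both induced libraries above both uninduced ones. All these genes were picked for a pattern like that of Tbx4 or Tbx2, so sharing it follows from the search. A pattern over 4 libraries leaves few ways to differ, so the distances are a description.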

How the data were processed

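The authors aligned single-end reads of 75 bases to mm10 with Bowtie 0.12.9, removed duplicates and called broad peaks with MACS2 2.2.6 for each H3K36me3 library against its own input (q cut-offs 0.05 and 0.1), without pooling. The authors' pileup, a signal of extended fragments averaged over each peak, is not scaled between libraries. The deposited fold enrichment is a ratio to the local input level, significance is given by the authors as the −log10 of the p-value and q-value, and the deposited length is in bases. Here, pileup was taken per 1000000 tags.

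Members and gene lists were chosen with earlier results of these data known. Named genes were the 6 members, up to 4 genes of highest mean density per list, nearest coding and overlapping noncoding genes, and the 3 nearest patterns of Tbx2 and of Tbx4, and other genes named were chosen after their values were seen. A gene of the lists and a sequence of a member are not reported here. With 1 library per condition no test was run. Intervals on ratios are exact conditional binomial, those on fragments exact Poisson. A gene without a peak had no enrichment detectable at 29046913 to 33399267 tags. Python 3.11, numpy 2.4.6 and scipy 1.17.1 were used, and the interval arithmetic was tested on simulated data.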

Additional observations from a re-analysis of the deposited data

Results flagged for a closer look

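For 5 members the sign of the log2 change with a treatment differed between the states of the cells. Each value below is a log2 change of density with a pseudocount of 0.05 from 1 library per condition, and the differences between states were not tested. The value for adding vitamin B12 was −0.050 without doxycycline and 1.18 with it in Tbx3, and −0.10 and 0.80 in Tbx4. For adding doxycycline it was −0.87 without vitamin B12 and 0.35 with it in Tbx3, −0.16 and 0.74 in Tbx4, −0.48 and 0.20 in Tbx5, −0.94 and 0.11 in Tbx15, and −1.23 and 0.17 in Tbx18. For vitamin B12 in uninduced cells, the intervals on the ratios of Tbx3 (0.802 to 1.15) and Tbx4 (0.446 to 1.12) include 1, so no difference was detectable. Over all marked genes the median change with doxycycline was −0.71 without vitamin B12 and 0.05 with it. Of all genes with a peak, 91.8% were lower with doxycycline in the absence of vitamin B12 and 59% were higher in its presence. The share of genes with both signs was not counted. For Tbx3, the sign of the change with vitamin B12 in uninduced cells depended on the peaks: it was 0.20 with peaks at most 1 kb apart merged. For Tbx4, that with doxycycline alone was 0.05 relative to the median marked gene. The signs with doxycycline also depended on the peaks. Over bases called in all 4 libraries, Tbx3 was at 0.025 without vitamin B12 and −0.11 with it, both opposite to the values above. Tbx15 (−0.26 and 0.027) and Tbx18 (−0.09 and 0.145) kept their signs there. When only peaks reaching a −log10 q of 5 counted, Tbx15 was at −1.94 and −0.44, and Tbx18 at 0 and −0.12. Opposite signs were then no longer seen in Tbx15 and Tbx18.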

How the results depend on the processing

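No paired analysis was possible because no condition has a second library, and no library could be left out. 11 alternatives were tried for each count of members. With the stricter peaks (−log10 q 5 or more), which left 3 members with a peak (Tbx3, Tbx15 and Tbx18), 1 was lower in OSKM than in MEF, and 3, 2 and 1 were higher in OSKM B12 than in OSKM, MEF and MEF B12. Over bases in a peak in all 4 libraries, which also left those 3, 2 were lower in OSKM than in MEF, and 3, 3 and 2 were higher in OSKM B12 than in OSKM, MEF and MEF B12; there Tbx3 turned to a log2 value of 0.025 in OSKM vs MEF. Divided by the median of marked genes, 1 member was higher in MEF B12 than in MEF. All other alternatives (fold enrichment of at least 2 or in place of pileup, equal numbers of peaks, peaks merged within 1 kb, unscaled pileup, covered share, whole gene, 5 kb past the end) left each count within 1.5 times its value. By direction, 56 of 60 values of single members were as reported in OSKM vs MEF, 59 in OSKM B12 vs OSKM, 58 in OSKM B12 vs MEF and 57 in OSKM B12 vs MEF B12. The 60 leave out Tbx2, Tbx4 and Tbx5 with the stricter peaks and over bases in a peak in all 4 libraries. Nothing of those members was left in these settings. In MEF B12 vs MEF, 44 of 60 kept their direction and 7 were opposite. The rest there were those of Tbx2, which was 0 as reported and in every alternative.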

Other observations

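Tek, the gene of an endothelial receptor and 1 of the 21 markers of other cells, was covered over 2.84% (MEF), 3.63% (MEF B12), 7.85% (OSKM) and 26.6% (OSKM B12) of its body. The other endothelial markers Pecam1 and Cdh5 were listed at 0 in all 4 libraries, and Kdr was covered over 0.903% in OSKM B12 alone. Nppa, the gene of a heart peptide and a target of TBX5, was covered over 31.2% in MEF and 42.4% in OSKM B12 and was listed at 0 in MEF B12 and OSKM.

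Foxc1, a transcription factor of mesenchyme, shared the order of Tbx2: it was listed at 0 in MEF and MEF B12 and was covered over 4.93% in OSKM and 8.45% in OSKM B12. Foxc2 was covered in OSKM alone, over 12%, and Msx1 in MEF B12 alone, over 17.1%. The coding gene Gm20388 overlaps Foxc2, so the mark there cannot be separated between them. Snai2 and En1 went the other way, with peaks in both uninduced libraries and in neither induced one: Snai2 was covered over 11.1% in MEF and 15.3% in MEF B12, and En1 over 8.22% and 11.4%. These genes were picked after their values were seen, their peaks have no replicate, and whether the patterns would recur was not tested.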
